A study of Mus musculus with 6 samples.

Results

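The genes of dentin and bone mineralization comprised 10 genes, Dspp, Dmp1, Ibsp, Mepe, Spp1, Phex, Fam20c, Alpl, Bglap and Bglap2, chosen by gene name from the 23594 genes of the deposited table, and all 10 passed the expression filter that left 20114 genes to be tested. RNA was measured in tissue from the apical side of the furcation development region (FDR) in mandibular first molars, which was cut out by laser-capture microdissection at PN4.5, when the crown is complete and root development starts. Of the 6 libraries, 3 came from wild type mice, called control here, and 3 from Lhx6-/- mice, all on a C57BL/6 background. The Lhx6-/- mice were homozygous for a knock-in allele that puts CreER into Lhx6 and abolishes its function in every cell, not in the tooth alone. The tissue of several molars was pooled for each library, so that p-values measure the spread between pools. In such bulk tissue, fewer cells of a type and less RNA per cell cannot be told apart.

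Odontoblasts and osteoblasts secrete a collagen matrix and then bring calcium and phosphate crystals into it. The SIBLING proteins (small integrin-binding ligand, N-linked glycoproteins) are acidic, phosphorylated proteins of that matrix that guide or restrain crystal growth. Alkaline phosphatase removes pyrophosphate, an inhibitor of crystal growth, and osteocalcin is a small protein of mature osteoblasts and odontoblasts that binds calcium. Dspp is the defining gene of differentiated odontoblasts, and its loss leaves dentin poorly mineralized.

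The 5 SIBLING genes lie in a row on chromosome 5 of mm10, all on the plus strand and within 270.3 kb. They are Dspp (chr5:104170712-104180127), Dmp1 (chr5:104202613-104214102), Ibsp (chr5:104299171-104311469), Mepe (chr5:104325329-104338611) and Spp1 (chr5:104435118-104441050). The osteocalcin genes Bglap (chr3:88383501-88384464) and Bglap2 (chr3:88377736-88378699) lie close together on the minus strand with the gene model Gm6821 between them, and their coding sequences of 285 bases are 98.6% identical. They differ by A10C, T14C, A31G and T273C, with the base of Bglap first and positions counted from the first coding base. The first 75 coding bases from GENCODE vM21, as long as a read, are shown because they hold 3 of these 4 differences, which are in capitals.
Bglap: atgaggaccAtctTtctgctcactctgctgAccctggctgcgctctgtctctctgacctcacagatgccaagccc
Bglap2: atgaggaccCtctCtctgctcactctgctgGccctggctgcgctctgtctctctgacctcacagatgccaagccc
Of all stretches of 75 bases in the transcripts of Bglap, 50.0% also occur in Bglap2 or Bglap3, and for Bglap2 the share is 73.3%. How the reads were divided between the osteocalcin genes is thus uncertain, and their values are also given as a sum. For Spp1 the share was 8.5%, all with Gm42793, a gene model on the same strand inside it. Phex shared 2 of 6217 such stretches with another gene, and the other 6 genes shared none.

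RefSeq promoters (GRCm38.p6) were found for 8 of the 10 genes, all but Dspp and Bglap2. Dmp1, Spp1 and Alpl had 2 each, of which the promoter nearest to the annotated start of the gene was kept, while the shares over all promoters count every one. In the 250 bases before the start site, the core letters bound by RUNX factors (ACCACA, or TGTGGT on the other strand) occurred in 4 of the 8, Dmp1, Mepe, Spp1 and Bglap, and in 14.0% of 32851 promoters. The letters TAATTA, the same on both strands and the core bound by LIM-homeodomain proteins such as Lhx6, occurred in 1 of the 8, Mepe, and in 4.8% of all promoters. They also occurred in the second promoter of Spp1, which was not kept. The promoters of Mepe (chr5:104325079-104325328, plus strand) and Bglap (chr3:88384467-88384716, minus strand) are shown because both genes were lower in all Lhx6-/- libraries, with the matched letters in capitals. In Mepe, TAATTA starts 208 bases and the RUNX letters 118 and 80 bases before the start site, and in Bglap the RUNX letters start 132 bases before it. The matches are descriptions of the sequence and were not tested for binding.
Mepe: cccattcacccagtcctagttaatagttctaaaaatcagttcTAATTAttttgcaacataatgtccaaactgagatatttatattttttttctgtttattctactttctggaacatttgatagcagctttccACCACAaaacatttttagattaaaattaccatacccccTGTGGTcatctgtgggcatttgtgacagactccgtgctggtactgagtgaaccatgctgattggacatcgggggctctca
Bglap: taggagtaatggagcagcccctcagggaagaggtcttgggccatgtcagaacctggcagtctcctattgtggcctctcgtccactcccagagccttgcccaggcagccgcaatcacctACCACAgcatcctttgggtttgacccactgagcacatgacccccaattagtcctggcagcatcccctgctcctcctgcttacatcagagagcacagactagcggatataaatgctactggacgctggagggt

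Each library held 60132323 to 76157433 estimated counts, and values are counts per 1000000 (CPM) after TMM scaling, whose factors ran from 0.977 to 1.044. Values of a group are listed for replicates 1, 2 and 3 in that order. Lhx6, the targeted gene, was checked first, with 27.8, 18.2 and 21.9 CPM in the control and 12.8, 9.82 and 10.5 CPM in the Lhx6-/- libraries. Its log2 fold change was -1.04 with a standard error (SE) of 0.157 and an adjusted p of 0.021 by edgeR (quasi-likelihood test, Benjamini-Hochberg adjustment). The labels give no sex, and the libraries differed in it: the Y-linked genes Kdm5d, Uty, Ddx3y and Eif2s3y summed to 14.6 to 58.0 CPM in control and 55.1 to 92.1 CPM in Lhx6-/- libraries. Xist, made from the inactive X chromosome of female cells, separated the groups, with 411 to 792 CPM in control libraries and 290, 0.228 and 0.0537 CPM in the Lhx6-/- libraries. Lhx6-/- replicates 2 and 3 thus held almost no Xist RNA, and with these pools sex and genotype cannot be fully told apart. Fits that hold the level of the Y-linked genes constant (Y-linked covariate) were therefore added once the data had been seen. For Lhx6 and the 10 mineralization genes they are given where they turn a direction or move a value by over 1.5 times. Related genes and markers are given by the main fit, edgeR without covariates, unless stated, and the Y-linked covariate moved several of them. For example, the log2 fold change of Mmp20 went from -0.065 to -0.413, of Phospho1 from -0.051 to 0.139 and of Col2a1 from -0.35 to 0.075. A covariate of epithelial markers moved these genes the other way, to 0.271, -0.187 and -0.675. Among control libraries, replicate 2 had both the highest Y-linked sum (58.0 CPM) and the highest sum of 7 dental epithelium markers (1332 CPM, against 862 and 926). Shifts with the Y-linked covariate thus cannot be assigned to sex alone.

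None of the 10 mineralization genes met the rule of a 1.5-fold change with an unadjusted p under 0.05, which 3.28% of the tested genes met, and none had an adjusted p under 0.05 by edgeR, against 0.403% of the tested genes. Their log2 fold changes ran from -0.30 for Mepe to 0.33 for Dspp, with a median of 0.068, where the median of all tested genes was -0.002. By edgeR, 3 of the 10 had an unadjusted p under 0.05, against 9.81% of the tested genes. Dspp was higher, as 4.75% of the tested genes were by this measure, and Mepe and Bglap2 were lower, as were 5.07%. DESeq2 and limma voom with sample weights gave 5 such genes, and limma-trend gave 3. With DESeq2, Dspp had an adjusted p of 0.000948, the single adjusted p under 0.05 in 209 refits of the 10 genes under other settings, and no refit reached a 1.5-fold change in any of them. In 5 of the 10 genes the control and Lhx6-/- libraries did not overlap, against 15.5% of the tested genes. Of these 5, 2 were higher in every Lhx6-/- library (7.86% of the tested genes) and 3 lower (7.68%). Scaling by the total count left 4 of the 10, without Dmp1, against 14.7% of the tested genes.

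The 95% confidence interval of the fold change lay within 1.5-fold in either direction for all 10 genes. This held for 54.2% of all tested genes, and for 96.1% of the 5622 genes at least as abundant as Mepe, the lowest of the 10. Each interval covers its own gene and is not adjusted for the number of genes. Among the same 5622 genes, 44 met the 1.5-fold rule and 36 had an adjusted p under 0.05 by edgeR. An unadjusted p under 0.05 was reached by 737 of them, and in 1056 the groups did not overlap. The shares over all tested genes thus include many genes less abundant than the 10.

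**Figure D1:**
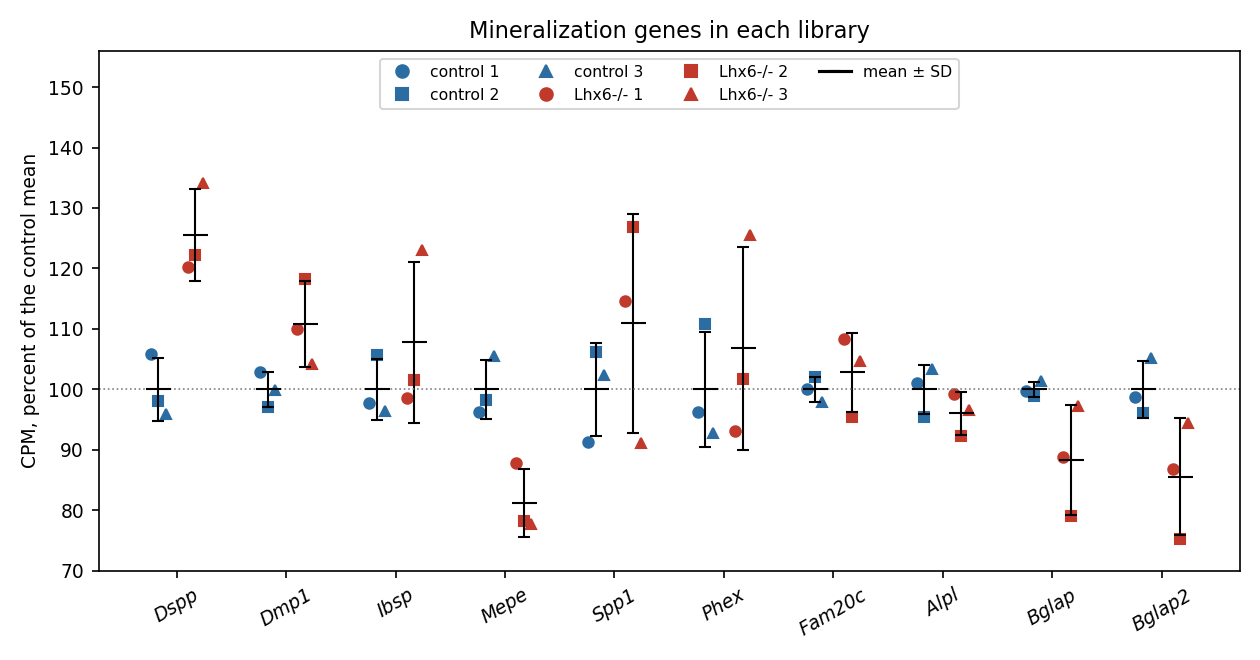
Level of each mineralization gene in each library as a percentage of the control mean of that gene (CPM), with 3 control libraries in blue, 3 Lhx6-/- libraries in red, shapes for the replicate numbers and black bars for the mean ± SD. All 3 Lhx6-/- libraries lie above control for Dspp and, narrowly, for Dmp1. They lie below control for Mepe, Bglap and Bglap2, while Ibsp, Spp1, Phex, Fam20c and Alpl overlap. The axis starts at 70 percent.

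Among the SIBLING genes, Dspp encodes the precursor that is cut into dentin sialoprotein and dentin phosphoprotein. It stood at 4731, 4384 and 4283 CPM in the control libraries and at 5367, 5457 and 5992 CPM in the Lhx6-/- libraries. Even the lowest Lhx6-/- library exceeded the highest control library. The mean was 4466 ± 235 CPM in control and 5606 ± 338 CPM in Lhx6-/- tissue (SD, n = 3 each), 125.5% of control. The log2 fold change was 0.33 (SE 0.087, 95% interval 0.14 to 0.52), with an unadjusted p of 0.00264 that was 267th in rank among the tested genes and an adjusted p of 0.199 by edgeR. The direction held in all 21 alternative settings, with log2 fold changes from 0.28 to 0.38 and adjusted p from 0.000948 to 0.54.

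Dmp1, a SIBLING protein of dentin and osteocytes, stood at 393, 371 and 382 CPM in control and at 421, 452 and 398 CPM in the Lhx6-/- libraries. The groups were separated only narrowly, between control replicate 1 and Lhx6-/- replicate 3. The difference came to 0.15 on the log2 scale (SE 0.076, 95% interval -0.017 to 0.31, adjusted p = 0.581 by edgeR).

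Mepe is made by osteocytes and odontoblasts and carries an acidic peptide that inhibits mineralization. Its level was 27.2, 27.8 and 29.8 CPM in control and 24.8, 22.1 and 22.0 CPM in the Lhx6-/- libraries. No Lhx6-/- library reached the lowest control library. The mean was 28.3 ± 1.39 CPM in control and 23.0 ± 1.60 CPM in Lhx6-/- tissue (SD, n = 3 each), with 1516 to 1855 estimated counts per library. The log2 fold change was -0.30 (SE 0.087, 95% interval -0.49 to -0.11), with an unadjusted p of 0.00494 and an adjusted p of 0.246 by edgeR. The direction held in all 21 alternative settings, with log2 fold changes from -0.36 to -0.21 and adjusted p from 0.124 to 0.652. The unadjusted p stayed under 0.05 in 20 of them, all but the fit with the Y-linked covariate.

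Ibsp, bone sialoprotein, promotes the first crystals in bone and cementum. It stood at 1763, 1908 and 1741 CPM in control and at 1779, 1832 and 2221 CPM in the Lhx6-/- libraries. Lhx6-/- replicate 3 stood apart, and the other 2 Lhx6-/- libraries lay within the control range. The log2 fold change was 0.11 (SE 0.097, 95% interval -0.10 to 0.32, adjusted p = 0.806 by edgeR), it was 0.002 without Lhx6-/- replicate 3, and with the Y-linked covariate it was -0.037.

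Spp1, osteopontin, binds crystals and bone cells and restrains crystal growth. It was at 1545, 1796 and 1731 CPM in control and at 1937, 2146 and 1542 CPM in the Lhx6-/- libraries. Here Lhx6-/- replicates 1 and 2 lay above control, and Lhx6-/- replicate 3 was the lowest of the 6 libraries. On the log2 scale the difference was 0.15 (SE 0.116, 95% interval -0.11 to 0.40, adjusted p = 0.759 by edgeR) and 0.27 without Lhx6-/- replicate 3, 0.042 without Lhx6-/- replicate 2, 0.092 without control replicate 1 and 0.075 with the Y-linked covariate. Ibsp and Spp1 thus stood in opposite order in that library, where their ratio in CPM was 1.44, against 0.919 and 0.854 in the other Lhx6-/- libraries and 1.01 to 1.14 in control.

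Of the enzymes, Phex is a membrane peptidase that breaks down the acidic peptides of Mepe and Spp1, and its gene lies on the X chromosome (chrX:157162075-157415312, minus strand). Phex stood at 282, 325 and 272 CPM in control and at 273, 298 and 368 CPM in the Lhx6-/- libraries. The groups overlapped, with Lhx6-/- replicate 3 the highest library. Phex had a log2 fold change of 0.095 (SE 0.112, adjusted p = 0.868 by edgeR), -0.037 without Lhx6-/- replicate 3 and -0.16 with the Y-linked covariate.

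Fam20c (chr5:138754514-138810077, plus strand) is the Golgi kinase that phosphorylates SIBLING proteins. Its level was 163, 166 and 159 CPM in control and 176, 155 and 170 CPM in the Lhx6-/- libraries, so that the Lhx6-/- libraries lay on both sides of the control range. Its log2 fold change was 0.040 (SE 0.071, 95% interval -0.12 to 0.20, adjusted p = 0.923 by edgeR).

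Alpl (chr4:137741733-137796384, minus strand), tissue-nonspecific alkaline phosphatase, stood at 810, 764 and 828 CPM in control and at 795, 739 and 774 CPM in the Lhx6-/- libraries. Its groups overlapped. Alpl had a log2 fold change of -0.058 (SE 0.076, 95% interval -0.22 to 0.11, adjusted p = 0.883 by edgeR), and with the Y-linked covariate it was 0.042. Alpl and Fam20c varied least over the 6 libraries, with the highest library 1.12 and 1.13 times the lowest.

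Bglap stood at 2448, 2427 and 2489 CPM in control and at 2179, 1939 and 2386 CPM in the Lhx6-/- libraries. Bglap2 stood at 1029, 1001 and 1096 CPM in control and at 906, 784 and 984 CPM in the Lhx6-/- libraries. In both genes all Lhx6-/- libraries lay below control and Lhx6-/- replicate 2 was the lowest. Leaving out that library, Lhx6-/- replicate 1 or control replicate 3 took the unadjusted p of Bglap2 (0.0321 by edgeR) above 0.05, as did the Y-linked covariate, with a log2 fold change of -0.14 (unadjusted p = 0.311 by edgeR). It stayed below 0.05 in 16 of 20 alternative settings. The log2 fold change was -0.18 for Bglap (SE 0.090, 95% interval -0.38 to 0.018, adjusted p = 0.572 by edgeR) and -0.23 for Bglap2 (SE 0.093, 95% interval -0.43 to -0.023, adjusted p = 0.454 by edgeR).

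Summing Bglap, Bglap2 and Bglap3 removes the division of counted reads among these genes, but not the effect of reads dropped or given to other genes. The sum was 3493, 3446 and 3601 CPM in control and 3100, 2737 and 3388 CPM in the Lhx6-/- libraries. The sum was thus lower in each Lhx6-/- library than in any control library, with a log2 fold change of -0.19 (SE 0.093, adjusted p = 0.54 by edgeR). The ratio of Bglap to Bglap2 was 2.27 to 2.43 in control and 2.41 to 2.47 in Lhx6-/- libraries, and the groups overlapped. Bglap3, the third osteocalcin gene of the mouse, was at 16.7 ± 1.19 CPM in control and 15.8 ± 1.65 CPM in Lhx6-/- tissue (SD, n = 3 each; log2 fold change -0.075, adjusted p = 0.896 by edgeR).

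**Figure D2:**
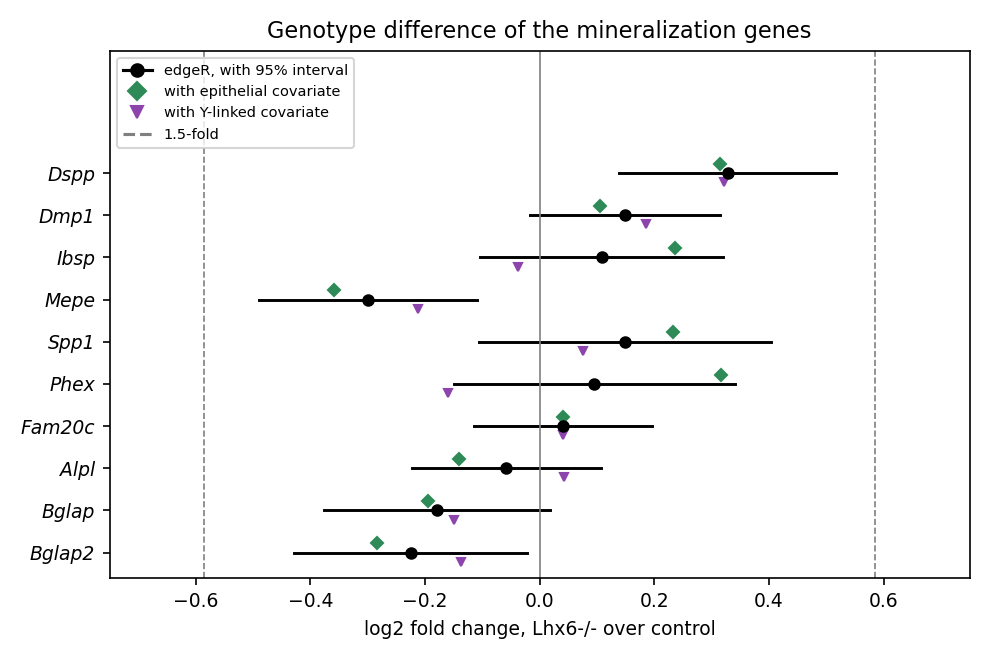
Log2 fold change of each mineralization gene, Lhx6-/- over control, with the edgeR value and its 95% interval in black and the values with an epithelial (green) or Y-linked (purple) covariate beside it, where dashed lines mark 1.5-fold. All 10 intervals lie between the dashed lines, those of Dspp, Mepe and Bglap2 do not cross 0, and the Y-linked covariate turns the direction of Ibsp, Phex and Alpl.

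Because Dspp was higher and the osteocalcin genes lower, the ratio of Dspp to Bglap in CPM, chosen after the values were seen, separated the groups more widely than either gene. It was 1.93, 1.81 and 1.72 in control and 2.46, 2.81 and 2.51 in Lhx6-/- replicates 1 to 3. The mean was 1.82 ± 0.107 in control and 2.597 ± 0.191 in Lhx6-/- tissue (SD, n = 3 each). An exact permutation test of 3 against 3 libraries cannot go below p = 0.1, so this ratio was not tested. The ratio of Mepe to Dmp1, chosen likewise, was 0.0691 to 0.0782 in control and 0.0489 to 0.0590 in Lhx6-/- libraries. Together the 10 genes made up 1.28% to 1.318% of the estimated counts in control libraries and 1.38% to 1.45% in Lhx6-/- libraries. This share is weighted toward Dspp, the most abundant of the 10, with a mean of 4466 CPM in control and 5606 CPM in Lhx6-/- libraries. It does not describe the genes as a group, as 4 of the 10 were lower.

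Levels of different genes were compared per kilobase of merged exons. In control libraries Bglap was highest, at 3972 ± 51 CPM per kilobase (SD, n = 3), followed by Bglap2 at 2212 ± 104, whose division of shared reads is uncertain. Spp1 (1026 ± 79), Dspp (1008 ± 53) and Ibsp (872 ± 44) came next, and the ranges of Spp1 and Dspp overlapped. Alpl (199 ± 8.11), Dmp1 (138 ± 3.997), Phex (46.6 ± 4.44), Fam20c (24.7 ± 0.495) and Mepe (16.8 ± 0.828) followed, each below the one before it in every control library. The order spanned 236-fold from Mepe to Bglap. In Lhx6-/- libraries the order was the same except that Dspp (1265 ± 76) stood above Spp1 (1138 ± 186), with overlapping ranges, and the range of Spp1 also overlapped that of Ibsp (940 ± 117).

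**Figure D3:**
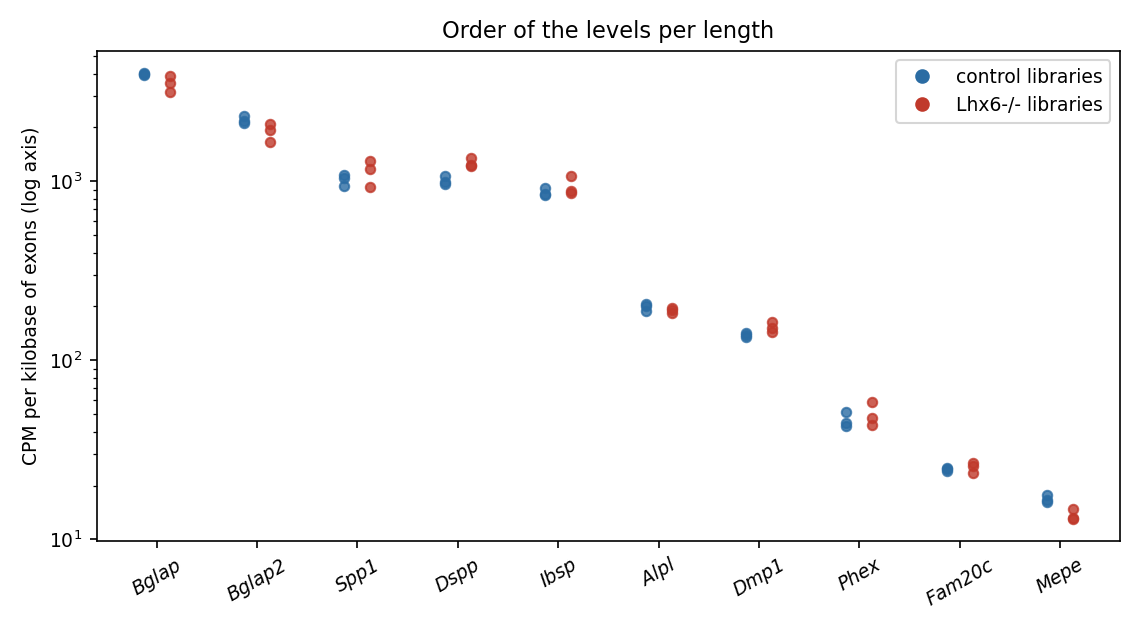
Level of each mineralization gene per kilobase of merged exons (CPM per kilobase, log axis) in the 3 control (blue) and 3 Lhx6-/- (red) libraries, ordered by the control mean. The genes run from Bglap at 3972 to Mepe at 16.8 CPM per kilobase in control, and Spp1, Dspp and Ibsp lie close together.

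The spread between libraries of a group was larger in Lhx6-/- tissue for 9 of the 10 genes, all but Alpl. The coefficient of variation was 1.28% in control and 10.3% in Lhx6-/- libraries for Bglap, 7.70% and 16.4% for Spp1, 9.54% and 15.8% for Phex, and 5.05% and 12.4% for Ibsp. Among tested genes within 2-fold of the same level, the median coefficient of variation ran the other way, at 8.43% in control and 6.50% in Lhx6-/- libraries around Spp1 and at 6.93% and 5.74% around Phex. For Dspp the coefficients were 5.27% and 6.03%. With 3 libraries a group these spreads are themselves imprecise, and their difference was not tested.

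The genes whose profile over the 6 libraries was most like that of Dspp, by the root mean square difference of centred log2 CPM among 15120 genes of at least 1 CPM, were Dpysl3 (0.037), Gm9917 (0.044) and Tm6sf1 (0.045). Dpysl3, which encodes a protein of the cytoskeleton in growing nerve cells, was at 93.2 to 101 CPM in control and 117 to 124 CPM in Lhx6-/- libraries (log2 fold change 0.31, adjusted p = 0.0911 by edgeR). For Ibsp they were Ube3a (0.019), a ubiquitin ligase, Atp2b1 (0.020), a calcium pump of the cell membrane, and Rcn1 (0.029), a calcium-binding protein of the endoplasmic reticulum. Like Ibsp, these 3 were highest in Lhx6-/- replicate 3, which follows from their choice by profile. None of the other SIBLING genes was among either set, and sets of 3 from 15120 genes cannot tell how those genes are regulated.

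The tested genes beside the SIBLING cluster were Gm26703, 51.0 kb before Dspp (log2 fold change 0.50, SE 0.394), and Pkd2, which encodes a calcium channel of cilia, 18.4 kb after Spp1 (0.11, SE 0.072). Inside it lay Gm42793 (0.39, SE 0.202). Beside the osteocalcin genes lay Paqr6 (0.18, SE 0.377) and Pmf1, a kinetochore gene 9.7 kb away (-0.20, SE 0.088), and Gm6821 lay among the osteocalcin genes (-1.58, SE 0.946). Adjusted p was 0.488 to 0.937 for these 6 genes by edgeR. Within the SIBLING cluster, Dspp and Mepe, 2 genes apart, differed in direction.

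Related genes of mineralization were taken as 5 lists of 49 genes in all, of which 48 were tested, Ankh being another name of Ank. Smpd3 and Fgf23 each stand in 2 of the lists. None met the 1.5-fold rule and none had an adjusted p under 0.05 by edgeR, where 2 had an unadjusted p under 0.05, Enpp1 among them, against 9.81% of the tested genes. By DESeq2 and limma none had an adjusted p under 0.05 either. Their median log2 fold change was 0.026, and 6 of the 48 had groups that did not overlap, 4 higher and 2 lower in Lhx6-/- tissue, against the 15.5% of tested genes given above.

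Of 11 genes of phosphate and pyrophosphate handling, 10 were tested, 3 of them higher and 7 lower (median log2 fold change -0.035). Enpp1, which makes pyrophosphate and so opposes Alpl, was at 58.4 ± 2.77 CPM in control and 67.1 ± 4.16 CPM in Lhx6-/- tissue (SD, n = 3 each). All Lhx6-/- libraries lay above control, and the log2 fold change was 0.20 (SE 0.073, adjusted p = 0.374 by edgeR). Ank, which exports pyrophosphate or its source, gave 0.084, Phospho1, a phosphatase of matrix vesicles, -0.051, and Slc20a1, a phosphate importer, -0.14. Of the 8 genes that process or modify SIBLING proteins, 5 were higher and 3 lower, with a median of 0.015. They included Bmp1, the protease that cuts the Dspp and Dmp1 proteins (0.033), its relative Tll1 (0.16), the enhancer Pcolce (0.003) and Mmp20, a protease shared with enamel cells (-0.065).

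The collagen-rich matrix held 14 genes, 12 of them higher and 2 lower (median log2 fold change 0.070), where 9996 of the 20114 tested genes were higher. Col1a1 and Col1a2, the chains of type I collagen, were at 75990 ± 10350 and 27850 ± 2250 CPM in control and at 80750 ± 3666 and 28620 ± 603 CPM in Lhx6-/- tissue (SD, n = 3 each), with log2 fold changes of 0.088 and 0.039. For Col1a1 and Col1a2 the epithelial covariate gave -0.158 and -0.09, and the Y-linked covariate gave 0.364 and 0.175. In the main fit Sparc, or osteonectin, gave 0.025, and Mgp, a vitamin K-dependent inhibitor of calcification related to osteocalcin, gave -0.20 (SE 0.092, adjusted p = 0.512 by edgeR). With the epithelial covariate Sparc turned to -0.034, and the count of 12 higher and 2 lower did not hold. Per kilobase of exons, Col1a1 was at 11580 ± 1577 in control, above each of the 10 mineralization genes.

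Odontoblast genes other than Dspp numbered 8, 4 higher and 4 lower, with a median of -0.003. Nes, an intermediate filament of odontoblasts, gave a log2 fold change of 0.061, and the transcription factors Dlx3 and Klf4 gave 0.015 and -0.13. Wnt10a, a ligand made by odontoblasts, gave -0.064. In the main fit the difference in Dspp was thus larger than in any of these 8 genes, which ran from -0.13 to 0.21. With the Y-linked covariate it was not, as Sall1, another of the 8, gave 0.603 and Nes 0.388, against 0.322 for Dspp. With the epithelial covariate Sall1 gave -0.083 and Nes -0.232, against 0.314 for Dspp. Of 10 osteoblast and osteocyte genes, 5 were higher and 5 lower, with a median of 0.006. The osteoblast factors Sp7 and Runx2 gave 0.056 and 0.076, and the homeobox factor Dlx5 gave 0.025.

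**Figure D4:**
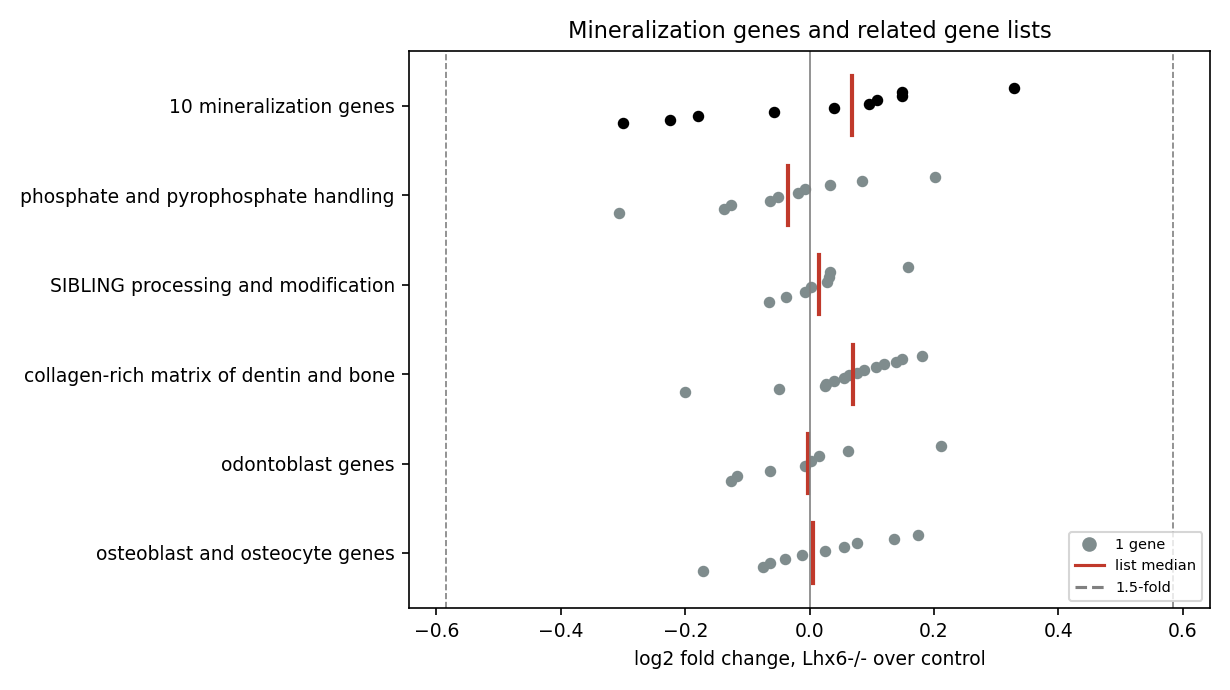
Log2 fold change of each gene, Lhx6-/- over control, for the 10 mineralization genes (black) and 5 related lists (grey), with the list median in red and dashed lines at 1.5-fold. No gene reaches 1.5-fold, and the medians lie between -0.035 and 0.070.

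Markers of the cells that the captured tissue could hold were read in the same libraries. All 7 dental mesenchyme markers were detected, and their sum was 1372 to 1433 CPM in control and 1517 to 1533 CPM in Lhx6-/- libraries. Most of this sum was Vim, a gene not limited to dental mesenchyme, with a mean of 984 CPM in control and 1072 CPM in Lhx6-/- libraries. Of the 7, 6 were higher, among them Pax9 (log2 fold change 0.51, adjusted p = 0.102 by edgeR). Msx2 was lower in every Lhx6-/- library (-0.24, adjusted p = 0.284 by edgeR). The sum of 7 dental epithelium markers was 862 to 1332 CPM in control and 605 to 726 CPM in Lhx6-/- libraries, with 7 of 7 lower. Their log2 fold changes differed widely, with Shh at -0.044 and Epcam at -0.074, against Krt14 (-0.62, adjusted p = 0.116 by edgeR) and Krt5 (-0.72, adjusted p = 0.214 by edgeR). With the mean level of Krt14, Krt5, Epcam and Cdh1 as a covariate, the log2 fold change was 0.31 for Dspp, -0.36 for Mepe, -0.19 for Bglap and -0.28 for Bglap2. The same fit moved 4 of the 10 genes by over 1.5 times, Phex to 0.32 (unadjusted p = 0.0294 and adjusted p = 0.493 by edgeR), Ibsp to 0.24, Spp1 to 0.23 and Alpl to -0.14.

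Enamel-forming cells, whose 7 markers include genes of the secretory and the maturation stage and summed to 115000 to 146300 CPM, were the most abundant of the marker lists, and their sums overlapped between groups. Of these markers, 1 had an adjusted p under 0.05, Amtn, a gene of maturation-stage cells (-0.54, adjusted p = 0.021 by edgeR), and 6 of 7 were lower. The 6 markers of osteoclasts, the cells that resorb bone, summed to 3670 to 3929 CPM in control and 3249 to 3914 CPM in Lhx6-/- libraries, with 4 of 6 lower. Endothelial markers were higher in 5 of 5 (240 to 253 against 273 to 319 CPM) and red blood cell markers lower in 4 of 4 (1770 to 2561 against 944 to 1343 CPM). Sums for periodontal ligament and follicle (959 to 1071 CPM), chondrocytes (714 to 1164), macrophages and leukocytes (303 to 343), muscle (955 to 1618) and nerve and glia (154 to 499) overlapped between groups. Most of the periodontal sum was Postn (mean 962 CPM in control and 960 CPM in Lhx6-/- libraries). In that list 3 of 4 were lower, among them Tnmd (-0.50, adjusted p = 0.431 by edgeR). Nerve and glia markers were higher in 4 of 4, among them Sox10 (0.58, adjusted p = 0.495 by edgeR). Of the 4 chondrocyte markers tested, 2 were higher and 2 lower: Col2a1, the most abundant, gave a log2 fold change of -0.35, Col10a1 -0.91, Acan 0.013 and Col9a1 2.39, the last with an adjusted p of 0.00576 by edgeR. The part of these cells in the values of Dspp, Mepe, Bglap and Bglap2 was not tested.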

How the data were processed

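Apical FDR tissue of mandibular first molars at PN4.5 was sequenced by the authors as single-end reads of 75 cycles, aligned to mm10 (STAR 2.6.1d per the submitters' processing notes) and quantified per gene in Partek. The authors deposited estimated counts of 23594 genes in 6 libraries, without normalization, and a table with the gene names and their own comparison. The group means in that table, scores on a scale set by the authors, served to check the order of the gene names (largest relative deviation 8.56e-08) and to solve the authors' library totals for an alternative scaling; its ratios, fold changes, p-values and false discovery rates were not used. How reads that fit several genes were divided is not given in the sources used here.

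Estimated counts were rounded and tested for genotype with edgeR 4.0.16 in R 4.3.3 (TMM scaling, edgeR's expression filter, robust quasi-likelihood test, two-sided, Benjamini-Hochberg adjustment over all 20114 genes). A gene met the rule with a 1.5-fold change and an unadjusted p under 0.05. Standard errors are the log2 fold change over the square root of F. The spread between the 3 libraries of a group set the precision (biological coefficient of variation 0.202). The code was tested on simulated counts.

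The 10 genes, the lists and the alternatives were chosen with earlier results of these data known. Named genes are the 10, Lhx6, Bglap3, up to 4 of each related list in list order (1 gene is not reported here) and any called ones, cluster neighbours, the 3 genes most like Dspp and Ibsp, and markers. GENCODE vM21 holds 23180 of the names. Alternatives were other scalings, DESeq2 1.42.0, limma 3.58.1, other filters, thresholds and covariates, a block for replicate numbers, and omission of single libraries. Covariates for Y-linked genes and the authors' larger library totals were added later, with the data in view. Plots were made in matplotlib 3.10.9.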

Additional observations from a re-analysis of the deposited data

How the results depend on the processing

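The 10 genes were refitted under 19 planned settings and 2 added after seeing the data. Of 209 values, 204 kept their direction and their side of an adjusted p of 0.05. Dspp passed it with DESeq2 alone (log2 fold change 0.327). The direction turned for Ibsp, Phex and Alpl: with the Y-linked covariate Ibsp was -0.037, Phex -0.16 and Alpl 0.042, and Phex was -0.037 without Lhx6-/- replicate 3; values without 1 library each ran from -0.037 to 0.186 for Phex. No setting gave a gene of the 10 that met the 1.5-fold rule. The number of the 10 with an adjusted p under 0.05 was 1 with DESeq2 and 0 in the other settings, and that with an unadjusted p under 0.05 was 1 with the Y-linked covariate, 5 with DESeq2 and limma voom, and 2 to 6 without 1 library each, the 6 without Lhx6-/- replicate 3.

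Of the related genes, 1 met the 1.5-fold rule with the epithelial covariate (Plod2, 0.67) and 1 with the Y-linked covariate (Sall1, 0.60). Lhx6 had a log2 fold change of -0.616 with the Y-linked covariate (adjusted p = 0.115 from edgeR) and of -1.17 to -0.859 without 1 library each, where its adjusted p exceeded 0.05 without control replicate 3 (0.111), Lhx6-/- replicate 2 (0.11) or Lhx6-/- replicate 3 (0.0772). Over all genes, 660 met the rule, 350 with a fold of at least 2, 292 with an unadjusted p under 0.01, 1174 with the Y-linked covariate and 607 to 968 without 1 library each. An adjusted p under 0.05 was reached by 81 genes, by 315 with DESeq2, 17 with the epithelial covariate, 233 with the Y-linked covariate and 12 to 127 without 1 library each (127 when control replicate 1 was left out, 12 for control replicate 3, 31 for Lhx6-/- replicate 1 and 20 for Lhx6-/- replicate 2). The causes were not tested.

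With a replicate block, 134 genes had an adjusted p under 0.05, the log2 fold change was 0.327 for Dspp and -0.301 for Mepe, and no call among the 10 changed. The paper describes littermate mutants and pairs of samples, but the labels do not say which libraries pair. The replicate numbers used here follow the sample titles, and the names of the Lhx6-/- libraries carry other numbers. Same-numbered libraries did not deviate together (correlations 0.026, -0.029 and -0.031). This check covers the title numbers alone and cannot tell whether libraries were paired in another way, and no other pairing was fitted.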
